A study of Mus musculus with 4 samples.

Results

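The E proteins and their ID inhibitors are a small family of helix-loop-helix genes with 7 members in the mouse. They are the 3 E protein genes Tcf3, Tcf4 and Tcf12 and the 4 ID genes Id1, Id2, Id3 and Id4. The members were taken by symbol from a table of 28649 gene rows, and each symbol had a single row. All 7 were among the 15240 genes with enough counts to be tested. The members were chosen by name with their measured log2 folds between the pulldowns known, Tcf12, Id2 and Id3 having been seen to be lower with miR-206, so the folds of the members are given as a description and carry no test.

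The study captured RNA on biotin-tagged microRNA mimics in fibro-adipogenic progenitors (FAPs), the stromal cells of skeletal muscle that can form fat and fibrous tissue. The cells were Sca1-positive cells sorted from muscle of C57Bl/6 wild-type mice. All of them were grown to about 80% confluency, transfected for 24 hours, and held for a further 48 hours in basal medium with 10% horse serum before capture. As the labels describe them, the groups differed in the mimic alone: 2 libraries came from a miR-206 mimic and 2 from a control mimic. No library of uncaptured RNA was analysed here, so a level is the amount of a transcript in the captured RNA, and capture and cellular abundance cannot be told apart. In these bulk samples, fewer cells of a type and less RNA per cell also cannot be told apart. The labels do not say that replicates came from separate animals or cultures, so the spread between them may be technical.

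E proteins are basic helix-loop-helix transcription factors. They bind the E-box, CANNTG, as dimers with each other or with tissue-restricted partners such as MyoD in the muscle lineage. ID proteins have the helix-loop-helix that makes dimers but lack the basic region that touches DNA, so an E protein held by an ID protein cannot bind the E-box. ID genes are direct targets of BMP signalling through SMAD proteins.

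The sequence of the bait, miR-206, is shown here because every comparison is between RNA captured on it and RNA captured on the control mimic. A microRNA finds its targets mainly through its seed, bases 2 to 8, which are in capitals in both mature strands of the mouse Mir206 hairpin (RefSeq, GRCm38.p6, chromosome 1, plus strand). The 3p strand is the one usually meant by miR-206, and it lies from 20679055 to 20679076. The labels do not name the strand of the mimic or give the sequence of the control.
mmu-miR-206-3p: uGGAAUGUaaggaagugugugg
mmu-miR-206-5p: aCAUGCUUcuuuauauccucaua
A transcript that pairs with the whole 3p seed holds the letters ACATTCC. The transcripts of the members were not searched for it here.

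The libraries held between 8883197 and 15426666 estimated counts. Normalised CPM below are counts scaled to library sizes after TMM, and TPM are the deposited length-corrected values, which alone allow a comparison of levels between genes. The choice between these scales matters: the median log2 fold of all tested genes, miR-206 over control, was -0.11 after TMM and -0.83 in TPM (log2 of TPM + 0.5). FAP markers were present in every library, with 9 of 9 over 3 counts. They summed to 2519 and 3345 TPM in the control and to 4104 and 4360 TPM in the miR-206 libraries, so the sums did not overlap. The single markers differed in direction. Osr1 was at 82.2 and 103 TPM in the control and at 1345 and 1298 TPM with miR-206. Cd34 was at 136 and 170.5 against 787 and 1062 TPM, and Dpt and Thy1 were also higher. In TPM, Pdgfra, Dcn, Lum and Col1a1 were lower in both miR-206 libraries than in either control library, as were 65.7% of all tested genes. Ly6a overlapped. After TMM the log2 folds of Pdgfra, Dcn, Lum and Col1a1 were 0.03, -0.48, -1.20 and -0.72. Only Lum among them was called depleted (edgeR adjusted p = 0.0304). Markers of other cells summed to 31.5 to 81.4 TPM in the control and 34.0 to 37.9 TPM in the miR-206 libraries for endothelial cells, and to 29.3 to 30.3 and 26.0 to 39.9 TPM for myogenic cells. They summed to 10.3 to 11.0 and 3.35 to 4.81 TPM for immune cells, and to 8.78 to 9.71 and 69.4 to 107.8 TPM for pericytes. At least 6 of 7 endothelial, 5 of 6 myogenic, 3 of 6 immune and 4 of 5 pericyte markers had over 3 counts in each library. The pericyte sum in the miR-206 libraries was mostly Rgs5 and Abcc9. The satellite cell marker Pax7 was at 0 to 0.102 TPM. The part of these cells in the results below was not tested.

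Tcf12, which encodes the E protein HEB, stood far apart from the rest of the family. The gene spans 71844252 to 72111893 of chromosome 9 (GRCm38). Transcript levels were 536.7 and 323.7 TPM in control replicates 1 and 2, and 8.96 and 9.35 TPM in miR-206 replicates 1 and 2. Both control libraries were thus far above both miR-206 libraries, which were close to each other. In normalised CPM the values were 1601 and 1002 in the control and 50.5 and 46.7 in the miR-206 libraries. The group means were 1301 ± 423 and 48.6 ± 2.74 normalised CPM (SD, n = 2), a level 26.8-fold lower with miR-206. The log2 fold, miR-206 over control, was -4.74 ± 0.43 (SE). Of all 15240 genes, 0.361% had a lower log2 fold than Tcf12.

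The place of Tcf12 among transcription factors changed with the mimic. The deposited workbook lists names of transcription factors, of which 972 were tested. By TPM, Tcf12 ranked 5 and 11 among them after control capture, and 334 and 342 after miR-206 capture. By log2 fold it was the fifth lowest of the 972. The authors' deposited table gives Tcf12 a log2 fold of -5.55, computed from mean TPM without a test.

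The other E protein genes did not follow Tcf12. Tcf4, which encodes E2-2 (chromosome 18, 69343429 to 69687967), was at 66.5 and 50.4 TPM in the control libraries and at 48.1 and 43.8 TPM in the miR-206 libraries. In normalised CPM the same gene was at 157 and 140 in the control and at 278 and 205 in the miR-206 libraries. The groups did not overlap on either scale, but the order of the groups turned from one scale to the other. Its log2 fold was 0.70 ± 0.32 (SE) after TMM, and -0.33 in TPM (log2 of TPM + 0.5). Relative to the median gene, which differed between the scales, it was 0.81 higher after TMM and 0.50 higher in TPM.

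Tcf3, which encodes the E2A proteins E12 and E47 (chromosome 10, 80409541 to 80433976), was the least abundant of the 3 E protein transcripts. It was at 12.4 and 9.59 TPM in the control libraries and at 4.97 and 6.42 TPM in the miR-206 libraries. In normalised CPM it was at 21.6 and 18.0 in the control and at 17.8 and 20.2 in the miR-206 libraries, so the groups overlapped after TMM scaling and not in TPM. The log2 fold was -0.06 ± 0.32 (SE) after TMM.

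**Figure D1:**
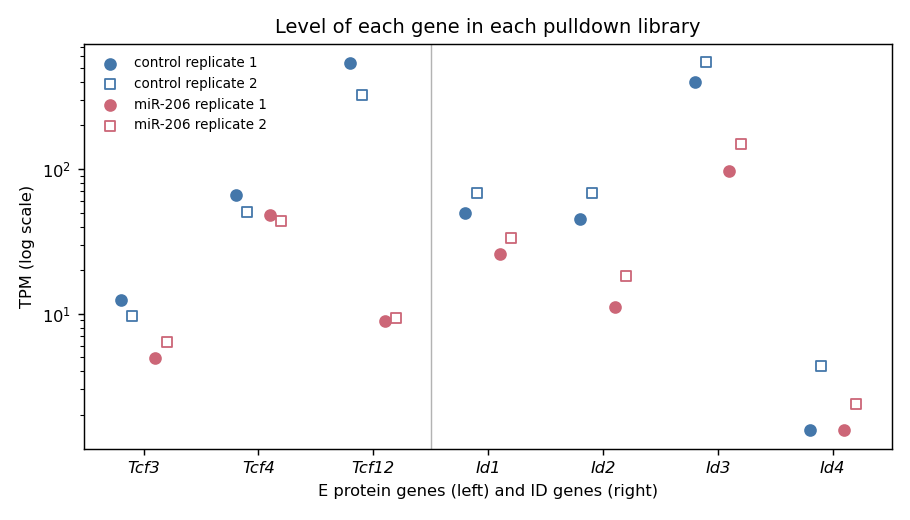
Level of the 7 genes in TPM (log axis) in each library, with blue for the control pulldown, red for the miR-206 pulldown, circles for replicate 1 and squares for replicate 2. Tcf12 lies at 536.7 and 323.7 TPM in the control and at 8.96 and 9.35 TPM with miR-206, while the groups of Tcf4 lie close together and those of Id4 overlap.

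Among the ID genes, Id3 was the most abundant and moved together with Id2. Id3 (chromosome 4, 136143822 to 136145392) was at 398.3 and 545.5 TPM in the control libraries and at 96.5 and 148.4 TPM in the miR-206 libraries. In normalised CPM it was at 290.3 and 442 against 148 and 210.4. All control values lay above all miR-206 values on both scales. The fold was 2.05-fold lower with miR-206, a log2 fold of -1.03 ± 0.35 (SE).

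Id2 (chromosome 12, 25093799 to 25096092) was at 45.1 and 68.7 TPM in the control libraries and at 11.1 and 18.1 TPM in the miR-206 libraries. In normalised CPM it was at 35.5 and 57.1 against 17.7 and 27.1, again with no overlap. It was 2.06-fold lower with miR-206, a log2 fold of -1.04 ± 0.33 (SE). Replicate 2 was the higher library of its group for Id1, Id2, Id3 and Id4, with either mimic and on either scale.

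Id1 (chromosome 2, 152736251 to 152737410) was at 49.6 and 68.2 TPM in the control libraries and at 25.9 and 33.3 TPM in the miR-206 libraries. In normalised CPM it was at 27.9 and 40.1 against 28.8 and 35.2, so the groups overlapped after TMM. The log2 fold was -0.09 ± 0.31 (SE).

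Id4 (chromosome 13, 48261116 to 48266028) was low throughout, with 24 and 94 counts after control capture and 31 and 55 after miR-206 capture. The level was 1.56 and 4.38 TPM in the control and 1.58 and 2.39 TPM in the miR-206 libraries. The miR-206 values lay between those of the control replicates. The log2 fold was 0.32 ± 0.68 (SE), and the depth at this gene does not allow a direction.

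Across all genes, edgeR called 15.3% enriched and 6.19% depleted in the miR-206 pulldown (quasi-likelihood test, adjusted p under 0.05). Of the members, 1 of 3 E protein genes (Tcf12) and 2 of 4 ID genes (Id2 and Id3) were among the depleted genes, and 0 of 7 were enriched. At an unadjusted p under 0.05, edgeR placed 1 member on the enriched side, and DESeq2 called 0 enriched after adjustment. In TPM, the miR-206 libraries lay wholly below the control libraries for 3 of 3 E protein genes and 3 of 4 ID genes, against 65.7% of all tested genes. In normalised CPM they did so for 1 of 3 E protein genes and 2 of 4 ID genes, against 32.3% of all genes, and they lay wholly above for Tcf4 alone among the members, against 29.7%. Nothing is read from these counts, since the members were chosen with this comparison known. The median log2 fold was -0.06 for the 3 E protein genes, -0.56 for the 4 ID genes and -0.11 for all tested genes.

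The log2 fold of Tcf12 lay between -5.90 and -4.35 in all 14 alternative settings, and it was called depleted in each of them. Id2 ranged from -2.11 to -0.62 and Id3 from -2.10 to -0.66. Their calls were lost without control replicate 2 (log2 fold of Id2 -0.62, of Id3 -0.66) or without miR-206 replicate 1 (-0.81 and -0.84), which leaves 1 member called. Relative to the median gene of each setting, Tcf12 stayed between -4.94 and -4.30, Tcf4 between 0.50 and 1.13, Tcf3 between -0.08 and 0.19, and Id1 between -0.26 and 0.30. On that same footing Id2 lay between -1.28 and -0.56, Id3 between -1.24 and -0.59, and Id4 between -0.19 and 1.41. The sign relative to the median gene was thus the same throughout for Tcf12, Tcf4, Id2 and Id3, and turned for Tcf3, Id1 and Id4.

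**Figure D2:**
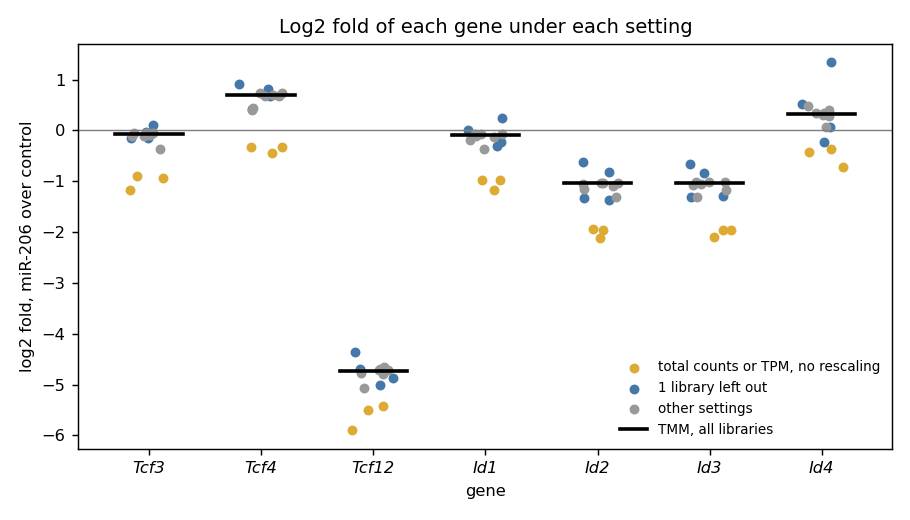
Log2 fold, miR-206 over control, of each gene with TMM and all libraries (black bar) and in 14 other settings (points: yellow for total counts or TPM without rescaling, blue for 1 library left out, grey for the rest). Tcf12 stays between -5.90 and -4.35, Id2 and Id3 stay below 0, and the points of Tcf3, Tcf4, Id1 and Id4 fall on both sides of 0.

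The order of the levels differed between the pulldowns. In the control pulldown Id3 (mean 472 TPM) and Tcf12 (430.2 TPM) led, and their libraries overlapped. Id1 (58.9 TPM), Tcf4 (58.5 TPM) and Id2 (56.9 TPM) followed with overlapping libraries. Tcf3 (11.0 TPM) and Id4 (2.97 TPM) came last, each below the gene before it in both libraries. In the miR-206 pulldown the order was Id3 (122 TPM), Tcf4 (45.9 TPM), Id1 (29.6 TPM), Id2 (14.6 TPM), Tcf12 (9.15 TPM), Tcf3 (5.70 TPM) and Id4 (1.98 TPM), and no neighbours overlapped. Tcf12 thus went from a place beside Id3 to a place below Id2.

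Summed over the members, E protein transcripts came to 616 and 383.6 TPM in the control libraries and to 62.0 and 59.5 TPM in the miR-206 libraries. ID transcripts came to 495 and 687 TPM in the control and to 135 and 202 TPM in the miR-206 libraries. Both sums were lower in each miR-206 library than in either control library. On this scale 65.7% of all tested genes, taken singly, were also lower in that way. The median log2 fold of all tested genes in TPM was -0.83. The ratio of E protein to ID transcripts was 1.24 and 0.559 with the control mimic and 0.459 and 0.294 with miR-206. The control replicates differed more from each other in this ratio than control replicate 2 differed from either miR-206 library. The difference of the group means was -1.18 on the log2 scale, with an SD of 0.82 between the control and 0.45 between the miR-206 replicates.

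That difference rested on Tcf12. Tcf12 made up 87.2% and 84.4% of the E protein sum with the control mimic and 14.4% and 15.7% with miR-206. Tcf4 made up 10.8% and 13.1% in the control and 77.5% and 73.5% with miR-206. Without Tcf12, a sum chosen after its values were seen, the ratio of E protein to ID transcripts was 0.160 and 0.0873 with the control mimic and 0.393 and 0.248 with miR-206. The difference of the group means then had the opposite sign, 1.40 on the log2 scale.

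**Figure D3:**
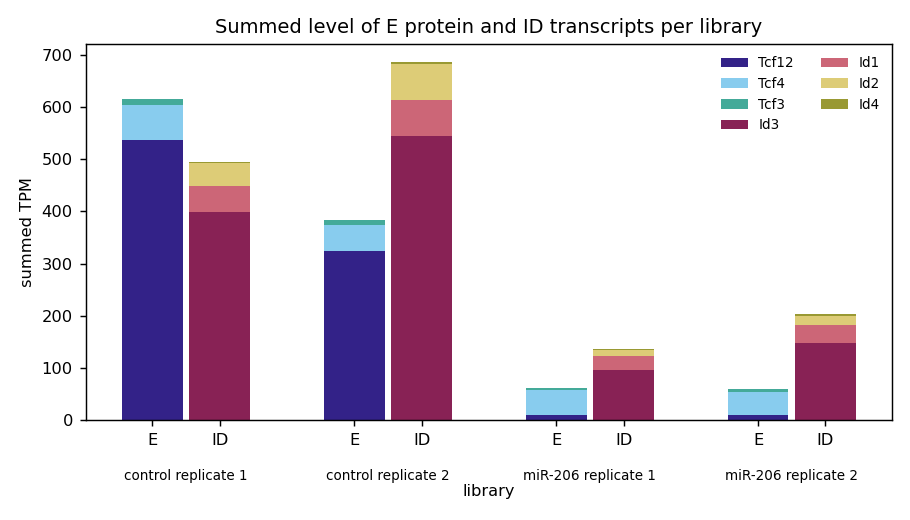
Summed TPM of the E protein genes (E) and the ID genes (ID) in each library, stacked by gene from 0. Tcf12 fills most of the E protein bar in the control libraries and a small part of it in the miR-206 libraries, and Id3 is the largest part of each ID bar.

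Within the ID genes Id3 kept its ratio to Id2 but not its share of the sum, which was 80.5% and 79.4% in the control and 71.4% and 73.4% with miR-206. Id3 was 8.83-fold and 7.94-fold above Id2 in the TPM of the control libraries, and 8.67-fold and 8.18-fold above it in the miR-206 libraries. Id3 was 8.02-fold and 8.0-fold above Id1 in the control, and 3.73-fold and 4.46-fold above it with miR-206. The Id3 to Id1 ratio thus separated the groups and the Id3 to Id2 ratio did not.

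The profiles of Id2 and Id3 over the 4 libraries were close, which restates the values behind their folds and their ratio. Likeness was measured as the Euclidean distance between log2 normalised CPM, each gene centred on its own mean, which the 4 shared libraries and their depths enter. Id2 and Id3 were 0.089 apart, against 0.560 for the next closest pair of members, Tcf3 and Id1. Tcf12 was at least 3.81 from every other member. Among 8579 other genes with at least 10 normalised CPM, Nrbp1 (0.052), Med1 (0.054) and Snrpb (0.079) were nearest to Id3. All of them were closer to Id3 than Id2 was, so the likeness is not particular to the pair. Med1 (0.105), Nrbp1 (0.124) and Foxn2 (0.130) were nearest to Id2. The genes nearest to Tcf12 were 2510039O18Rik (0.447), Cxcl9 (0.465) and Pawr (0.516), at larger distances. Nearest to Id1 were Igfbp3 (0.047), Smurf1 (0.049) and Lipa (0.053). Rxra, a retinoid receptor gene, was nearest to Tcf4 (0.063), followed by Tango6 (0.077) and Plekhm3 (0.107). For Tcf3 they were Atp11b (0.053), Wdr31 (0.060) and Sec24a (0.062), and for Id4 Ube2g1 (0.092), Ado (0.173) and Sdk1 (0.175).

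The effective length that joins the counts of a gene to its TPM depends on which transcripts the reads were assigned to, and the choice of members did not use it. Scaled to the median gene of each library, this length was 0.913-fold for Tcf12 with miR-206 relative to the control. For Tcf4 it was 1.06-fold and for Tcf3 0.973-fold, while it was 0.988-fold, 0.998-fold and 1.00-fold for Id1, Id2 and Id3. On the log2 scale the difference was -0.13 for Tcf12, where 90% of 7366 genes lay between -0.185 and 0.363. Id4 had too few counts for this measure. The difference of Tcf12 was the largest among the members measured, and 22.8% of the 7366 genes had a larger one in either direction. Whether the transcripts used by Tcf12 differed between the mimics was not tested.

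The genes around the family were described through lists of its partners, cofactors, competitors and inputs, chosen with earlier results of these data known. Tissue-restricted helix-loop-helix partners of E proteins were mostly low in the captured RNA, and 17 of 45 had enough counts to be tested. Of these, 3 were enriched (17.6%, against 15.3% of all genes), 0 were depleted and 14 did not pass. The median log2 fold was 0.62, against -0.11 for all genes. At an unadjusted p under 0.05 edgeR placed 5 on the enriched and 1 on the depleted side, and DESeq2 called 4 and 0. The tally turned with the scaling, to 1 enriched and 2 depleted in TPM, and total counts alone gave 0 and 2. It was 1 enriched and 0 depleted without miR-206 replicate 1. Myod1, the myogenic determination gene, was at 3.39 and 0.453 TPM in the control and at 10.1 and 6.40 TPM in the miR-206 libraries (log2 fold 3.10 ± 0.78, edgeR adjusted p = 0.0257). Tcf24 was at 0.822 and 0.199 TPM against 2.14 and 1.67 TPM (2.50 ± 0.68, edgeR adjusted p = 0.0125). Myog, the myogenic differentiation gene, was at 18.3 and 22.1 TPM against 25.7 and 15.8 TPM, where the groups overlap (0.98 ± 0.33, edgeR adjusted p = 0.0428). The calls held in 13, 9 and 7 of 14 alternatives for Myod1, Tcf24 and Myog. Myod1 lost its call with total counts alone, and Tcf24 and Myog lost theirs under several scalings and without miR-206 replicate 1 (adjusted p = 0.231 and 0.697), Myog also without control replicate 1 (0.102). The log2 fold of Myod1 was 5.09 without control replicate 1 and 2.30 without control replicate 2, and that of Tcf24 was 3.56 without control replicate 1. The log2 fold of Myog in TPM was 0.00. Twist2, a mesenchymal partner, was named here after its values were seen. It was at 11.8 and 11.0 TPM in the control and at 8.55 and 9.66 TPM with miR-206. In normalised CPM the order of the groups turned, with means of 9.70 in the control and 14.9 with miR-206. The log2 fold of Twist2 after TMM was 0.62 ± 0.36 (not called).

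Zinc finger factors that bind E-box sequences as repressors were enriched in 4 of 4 tested cases, against 15.3% of all genes, with a median log2 fold of 2.57. Over the 14 alternatives 2 to 4 of them were called, with 2 for total counts alone and 3 in TPM. Snai2 was at 114 and 179.6 TPM in the control libraries and at 2689 and 1818 TPM in the miR-206 libraries (log2 fold 4.87 ± 0.49, edgeR adjusted p = 9.4e-07). Zeb2 was at 26.1 and 15.3 TPM against 81.3 and 55.9 TPM (3.89 ± 0.41, edgeR adjusted p = 1.3e-06), and its log2 fold was smaller per length, 2.51 in median-centred TPM and 1.73 in TPM. Zeb1 had a log2 fold of 1.25 ± 0.31 (edgeR adjusted p = 0.00712; 1.87 in median-centred TPM) and Snai1 of 1.19 ± 0.37 (edgeR adjusted p = 0.0276). The call of Snai1 was lost in 7 of 14 alternatives, 5 of them scalings or TPM settings and the others without control replicate 1 or miR-206 replicate 2 (adjusted p = 0.134 and 0.140). That of Zeb1 was lost with total counts alone (0.638) and without miR-206 replicate 1 (0.0745). Snai2 has been listed as a target of miR-1 and miR-206, so its place here is not independent evidence.

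Of 12 cofactors of E proteins, 4 were enriched (33.3%, against 15.3% of all genes), 0 depleted and 8 did not pass. The median log2 fold was 0.30, against -0.11 for all genes. At an unadjusted p under 0.05 edgeR placed 5 on the enriched and 1 on the depleted side, and DESeq2 called 4 and 0. The tally was 3 enriched and 2 depleted in TPM, 3 and 4 with total counts alone, and 3 and 1 without control replicate 1. Runx1t1, whose protein ETO is a corepressor that binds E proteins, was at 74.2 and 85.3 TPM in the control and at 511 and 399.9 TPM in the miR-206 libraries (log2 fold 3.47 ± 0.42, edgeR adjusted p = 6.9e-06). Ldb1, an adaptor in complexes of E proteins with LIM-only factors, had a log2 fold of 2.03 ± 0.32 (edgeR adjusted p = 0.000129). The acetyltransferase genes Crebbp (1.75 ± 0.36, edgeR adjusted p = 0.00141) and Kat2a (1.09 ± 0.34, edgeR adjusted p = 0.0319) were also called. The call of Kat2a was lost in 7 of 14 alternatives, 5 of them scalings or TPM settings and the others without control replicate 1 (adjusted p = 0.112) or miR-206 replicate 2 (0.0931). Its log2 fold was 0.03 with total counts alone and 1.76 without control replicate 2.

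The BMP pathway that drives ID genes had more enriched than depleted members, as did all tested genes. Of 26 tested, 7 were enriched (26.9%, against 15.3% of all genes), 0 depleted and 19 did not pass. The median log2 fold was 0.34, against -0.11 for all genes. At an unadjusted p under 0.05 edgeR placed 9 on the enriched and 1 on the depleted side, and DESeq2 called 7 and 0. The ligand Bmp4 was at 1.54 and 4.27 TPM in the control and at 67.7 and 51.3 TPM with miR-206 (log2 fold 5.42 ± 0.44, edgeR adjusted p = 3.4e-07), and its log2 fold was 6.25 without control replicate 2. The receptor genes Bmpr1a and Bmpr2 had log2 folds of 3.22 ± 0.38 and 3.25 ± 0.37 (edgeR adjusted p = 5.0e-06 and 3.4e-06). Smad4, the SMAD shared by BMP and TGF-beta signals, had 2.59 ± 0.33 (edgeR adjusted p = 1.4e-05). The SMADs specific to BMP, Smad1, Smad5 and Smad9, were not called. Their log2 folds were -0.29 ± 0.29, 0.10 ± 0.29 and 1.33 ± 0.50, the last with an edgeR adjusted p of 0.0680. The tally rested on the scaling, with 5 genes enriched and 8 depleted in TPM and 5 and 11 with total counts alone.

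Of 4 genes of ID protein turnover, 1 was depleted (25%, against 6.19% of all genes) and 0 were enriched (1 enriched at an unadjusted p under 0.05 and 1 by DESeq2). The median log2 fold was -0.56, against -0.11 for all genes, and 3 of the genes were depleted in TPM or with total counts alone. The depleted gene was Usp1, a deubiquitinase that stabilises ID proteins. It was at 22.3 and 18.0 TPM in the control and at 3.87 and 3.19 TPM in the miR-206 libraries (log2 fold -1.57 ± 0.31, edgeR adjusted p = 0.000951), and it was called in all 14 alternatives. Of 4 CDK inhibitor genes that E proteins can activate, 1 was enriched (25%, against 15.3% of all genes) and 0 were depleted (0 at an unadjusted p under 0.05 and by DESeq2). The median log2 fold was 0.29. In lists of 4 genes such a share rests on 1 gene, so nothing is read from it. Cdkn2b was at 15.3 and 16.6 TPM in the control and at 55.8 and 26.8 TPM with miR-206 (2.32 ± 0.37, edgeR adjusted p = 0.000226; log2 fold 1.59 without miR-206 replicate 1), and Cdkn1a, which encodes p21, did not pass (0.32 ± 0.32). Of 6 tested HES, HEY and BHLHE repressor genes, edgeR called 0 in either direction (0 at an unadjusted p under 0.05 and by DESeq2), with a median log2 fold of -0.24, and 2 were depleted in TPM and 3 with total counts alone.

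**Figure D4:**
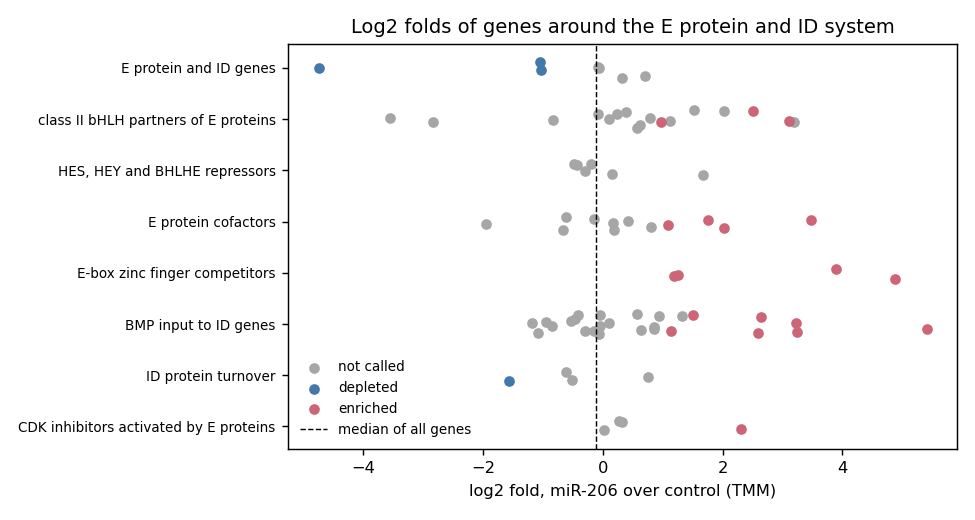
Log2 fold, miR-206 over control after TMM, of each tested gene in the family and in 7 lists around it (red: called enriched; blue: called depleted; grey: not called; dashed line: median of all genes, -0.11; heights within a row are arbitrary). Tcf12 lies at -4.74, below every gene of the lists, and the 4 E-box zinc finger genes lie between 1.19 and 4.87.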

How the data were processed

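Library kits were SMARTer and NuGEN Ovation, as the labels' protocols state. Quality was checked with FastQC and reads were assigned with kallisto on mm10, per the submitters' processing notes. Neither tool versions nor the transcript annotation, nor how transcripts became genes, could be read from the sources used here. The estimated counts (expected counts, not all whole) and the TPM values are those the authors deposited, and the TPM sum to 629789 to 743941 over the listed rows. kallisto divides reads between shared sequences. In the deposited fold table the values are log2 of mean TPM, although per the file headers they are Ln2 and CPM. A further deposited sheet lists transcription factor names (other values of it were not used). Barcodes in the sample titles gave each column its sample, and 0 columns were left over. Date-like strings replace the gene symbol in 27 rows.

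Counts were rounded and tested with edgeR 4.0.16 (R 4.3.3; TMM, filterByExpr, robust glmQLFit and glmQLFTest, group as the only term), with Benjamini-Hochberg adjustment over 15240 genes and a threshold of 0.05. An SE is the size of the log2 fold divided by the root of its F statistic. TPM were tested with limma 3.58.1 on log2(TPM + 0.5) and log2(TPM + 0.1), and counts with DESeq2 1.42.0, as alternatives. Depth was 8883197 to 15426666 counts, and 3 counts equal 0.157 to 0.330 normalised CPM. The fit was first tested on simulated data. Likeness used log2 CPM with a prior count of 2, and implied length used 7366 genes with at least 100 counts in every library.

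The members and lists were chosen with earlier results of these data known. Named genes are the 7 members, from each list up to 4 called genes (lowest p first, mean of at least 1 normalised CPM), and the 3 genes nearest to each member. Smad1, Smad5, Smad9, Cdkn1a and the FAP markers were named after their values were seen. Gene positions are from RefSeq (GRCm38.p6, the assembly of mm10), where 7 of 7 members matched by symbol.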

Additional observations from a re-analysis of the deposited data

How the results depend on the processing

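There are 2 libraries a group, and the share of enriched calls rests on the scaling: 71.1% with TMM, 48.8% with the upper quartile, 13.4% with total counts alone, 15.6% and 15.9% with TPM (pseudocount 0.5 and 0.1) and 67.2% with median-centred TPM. Against 2327 enriched and 944 depleted genes, the counts were 1070 and 6909 with total counts, 1103 and 5945 with TPM + 0.5, 1102 and 5842 with TPM + 0.1, and 1962 depleted with the upper quartile. Leaving out 1 library gave 1655 to 2576 enriched and 358 to 1535 depleted genes, the depleted count being 1535 without control replicate 1, 487 without miR-206 replicate 2 and 358 without miR-206 replicate 1. The median log2 fold of all genes was -1.22 with total counts, -0.83 and -0.99 with TPM + 0.5 and + 0.1, and -0.11 with TMM, so sign changes below under these settings go with a shift of all genes. The cause of the other changes was not tested.

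The members called depleted numbered 1 to 5 over the 14 alternatives, with 5 for total counts alone, and none gave an enriched member. Log2 folds changed sign for Tcf3 without control replicate 1 (0.10; -0.15 to 0.10 with 1 library left out), for Tcf4 with total counts (-0.44) and with TPM at either pseudocount (-0.33 each), and for Id1 without control replicate 2 (0.24) or miR-206 replicate 1 (0.01; -0.30 to 0.24 with 1 left out). They did so for Id4 with total counts (-0.72), TPM + 0.5 (-0.37), TPM + 0.1 (-0.42) and without control replicate 1 (-0.23; -0.23 to 1.34 with 1 left out), and for Myog with total counts (-0.16). The log2 difference in the E protein to ID ratio, -1.18, was -1.76 to -0.60 with 1 library left out, -1.32 in normalised CPM and 1.40 without Tcf12.

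The replicate numbers are not stated to pair the libraries, and deviations of same-numbered libraries correlated at r = -0.08 over 15240 genes. With a replicate block 2576 genes were enriched and 1129 depleted, and the same 3 members were called.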

Other observations

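Tcf7l1 and Tcf7l2 encode HMG-box factors of Wnt signalling that were once called TCF3 and TCF4, so their values are given apart from the E protein genes. Tcf7l1 was at 15.0 and 18.6 TPM in the control and at 17.2 and 19.0 TPM in the miR-206 libraries, where the groups overlap. Its log2 fold after TMM was 1.00 ± 0.29 (edgeR adjusted p = 0.0203). Tcf7l2 was at 167 and 117 TPM in the control and at 85.4 and 142 TPM in the miR-206 libraries, where the groups overlap (0.62 ± 0.36, edgeR adjusted p = 0.252).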
